A study of Mus musculus with 5 samples.

Results

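Kinesins are motor proteins that walk along microtubules or shorten them, and centromere proteins build the kinetochore, the structure that ties each chromosome to the spindle. A dividing cell uses one set of kinesins to build the spindle, move chromosomes and pinch the daughter cells apart, while another set carries vesicles, organelles and protein complexes in cells whether or not they divide. The early limb bud is a highly proliferative tissue. The genes described here are those of the deposited table whose symbol is Kif followed by a number or Cenp followed by a letter, without Kif3a and Kif7, and each had 1 row. They number 51 of 22653 genes with a row of their own, 33 of them kinesins and 18 Cenp genes. The rule goes by symbol and uses no value, but the genes and their sorting by role were chosen with earlier results of these data known.

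RNA came from whole forelimbs of mouse embryos at E11.5 (47 to 48 somites), of mixed C57BL/6 and Swiss Webster strain. The groups were 3 samples given only as control and 2 of the genotype Prx1Cre+/-;Prmt5c/c, named Prmt5cKO, described as biological replicates. Prx1Cre is active in limb mesenchyme, so ectoderm, muscle, vessels and nerve in the same forelimbs can keep Prmt5, the gene of an arginine methyltransferase that acts on histones and on splicing proteins. The comparison asks which transcripts differ where the mesenchyme lacks this enzyme. The values are the authors' FPKM (fragments scaled by transcript length and library size), 1 per gene and genotype, so spreads between samples cannot be given and sequencing depth is unknown.

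In the table as a whole Prmt5 stood at 40.9 FPKM in control and at 12.5 in Prmt5cKO, 30.6% of control. Limb mesenchyme markers were strong in both genotypes, at 525 and 527 FPKM summed over 9 genes, and the forelimb factor Tbx5 (23.0 FPKM in control) stood above the hindlimb factor Tbx4 (3.81). Control had 87.3 FPKM of Xist against 0.392 in Prmt5cKO, while Ddx3y on the Y chromosome had 0.0840 against 21.8, so the sex of the embryos went with genotype, and their parts in any difference below cannot be told apart. Macrophage markers were higher in Prmt5cKO, with 8 of 9 risen and a sum over the 10 listed genes of 32.7 FPKM against 59.6. Skeletal muscle markers summed to 144 FPKM in control and 117 in Prmt5cKO, but they did not move together. Of 8 at the minimum level 6 lay below a ratio of 1, with Myh3 and Tnnt1 fallen. The other 2, Myf5 (2.50 and 3.22 FPKM) and Myod1 (3.03 and 3.50), lay above it without passing. Pax3, below the minimum level, was at 0.525 and 1.14. The part of these cells in the results on kinesins and Cenp genes was not tested, and in whole tissue fewer cells of a type and less RNA per cell cannot be told apart.

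A gene was called changed where its mean over the genotypes was at least 1 FPKM and the authors' q-value was under 0.05. Of the 51 genes 46 reached that mean and the authors tested 36 of these. In all 8 changed, 1 upwards and 7 downwards, or 22.2% of those tested, beside 24.1% of 10617 genes tested in the table. The background was 4.83% for rises and 19.3% for falls, and the 36 tested genes had 2.78% and 19.4%. As a whole their share of calls was thus near that of the table at this threshold. Under a q of 0.1 they had 12 calls of 36 tested, beside 29.7% of all tested genes. Under 0.01 they had 5 of 36, beside 16.8% of all. With a minimum mean of 5 FPKM they had 5 calls of 32 tested, a lower share than the 25.7% of all. With no minimum they had 8 of 41, beside 15.5% of all. Genes counted as tested there include low ones, among them the 5 of the 51 below that mean. Whether the authors tested these is not known. Within the family the calls were unevenly placed by role: none of 7 tested mitotic kinesins passed, while 4 of 10 tested transport kinesins fell. The median log2 ratio, computed as log2((Prmt5cKO FPKM + 1) / (control FPKM + 1)), was -0.01 over 11 mitotic kinesins and -0.18 over 12 transport kinesins, beside -0.12 over all 11674 genes at the minimum. The difference of these medians was 0.16 on the log2 scale, and 0.09 after quantile normalization of the genotype columns. It is given as a description with no test, since genes are not replicates.

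**Figure D1:**
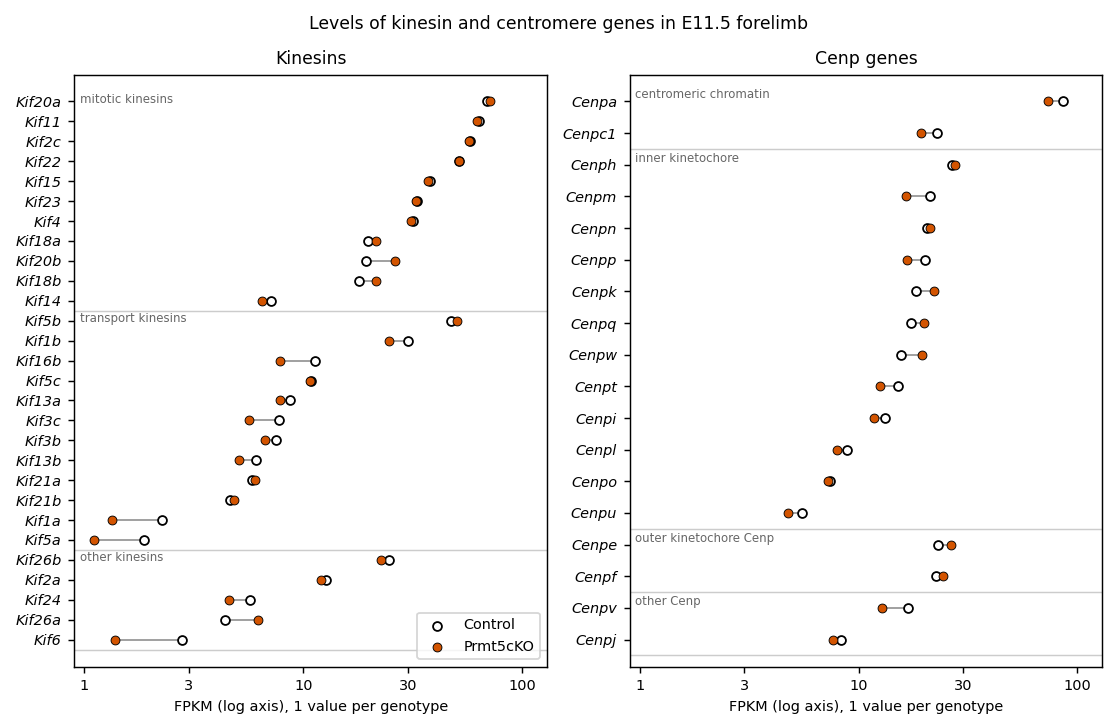
Levels in FPKM on a log axis for the 46 genes that reached a mean of 1 FPKM, with 1 open point for control and 1 filled point for Prmt5cKO per gene, ordered by control level within each role. Among the mitotic kinesins Kif20a is highest at 68.9 and 71.5 FPKM and Kif20b has the widest gap, with the Prmt5cKO point to the right, while Kif16b, Kif1a, Kif3c, Kif5a and Kif6 lie lower in Prmt5cKO.

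The mitotic kinesins were among the better expressed of the 46 genes, and most but not all had similar levels in the genotypes. Their FPKM summed to 409 in control and 418 in Prmt5cKO, 102% of control, and their median level was 33.1 FPKM in control against 7.62 for the transport kinesins. Of 11 at the minimum level 7 lay within 0.1 of a log2 ratio of 0, beside 30.5% of all genes. That band leaves out the median of all genes, -0.12. After rescaling to a median ratio of 1 over all genes the mitotic median was 0.11. Of the 11 genes 10 lay above the median ratio of all genes. Kif20b, at 135% of control, and Kif18b, at 119%, lay farthest above. None of the 7 tested passed the authors' q under 0.05, and Kif18b did so under 0.1. The tool behind this q is not given in the labels, and no unadjusted p-value is used here.

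Motors that build and shape the spindle come first here. Kif11, which slides antiparallel microtubules apart so that the spindle becomes bipolar, was at 63.5 and 62.1 FPKM in control and Prmt5cKO (log2 fold change, given below as log2, of -0.03 with q = 0.884 by the authors' deposited table). Kif15, which can support the same spindle, was at 38.01 and 37.0 FPKM. For both motors the values of the genotypes lay close to each other. Kif2c, a microtubule depolymerase at centromeres that helps to correct wrong attachments, was at 57.9 and 57.1 FPKM. Its relative Kif2b was listed at 0 in control and 0.0223 in Prmt5cKO and stayed below the minimum level. Kif18a, which restrains chromosome movements at the spindle equator, was at 19.7 and 21.6 FPKM (log2 0.13, q = 0.300), and Kif18b, which shortens astral microtubules, at 18.0 and 21.4 (log2 0.25, q = 0.0844), by the authors' deposited table.

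Chromokinesins bind chromosome arms and push them from the poles. Kif22 was at 51.3 FPKM in both genotypes, and Kif4 at 31.9 in control and 31.0 in Prmt5cKO, with q-values of 0.996 and 0.857 in the authors' deposited table. Kif4 is X-linked, and without it and the X-linked Cenpi the difference between mitotic and transport medians was 0.17. Among kinesins of cell division proper, Kif20a, which carries the chromosomal passenger complex to the midzone, had the highest level of any kinesin here at 68.9 and 71.5 FPKM. Kif23, a subunit of centralspindlin, was at 33.1 and 32.8 FPKM, and Kif14, which acts in cytokinesis with citron kinase, at 7.15 and 6.48. Kif20b, which acts in the last cut between daughter cells, showed the widest gap of the set, 19.4 FPKM in control and 26.1 in Prmt5cKO (135% of control). For these 4 genes of cell division the authors list a fold of 0 with a q of 1, read here as not tested, so the gap at Kif20b has no test.

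A sequence feature that the choice of genes did not use went with the mitotic kinesins. The letters TTTGAA form the core of the cell cycle genes homology region, an element near the start of many genes of G2 and mitosis that is known to bind repressor and activator complexes containing MuvB. RefSeq promoter windows on GRCm38.p6, from 250 bases before to 50 after each start, existed here for 41 of the 46 genes (not for Kif13b, Kif20a, Kif21b, Kif5a and Kif5b), and TTTGAA was searched on both strands. It was present in 9 of 10 mitotic kinesins with a window, in 1 of 8 transport kinesins (in 1 of the 2 windows of Kif1a), in 13.6% of 8749 genes of the table at the minimum level and in 20.2% of all 27025 genes with a window. Within 30 bases of the start, a limit chosen after the positions were seen, it occurred in 7 of 10 mitotic kinesins, in no transport kinesin, and in 2.64% of genes at the minimum level. The 7 windows are shown from 60 bases before the start to 30 after it, 5′ to 3′ on the gene's strand, to let the element be seen in place. Capitals mark TTTGAA or, where it lies on the other strand, TTCAAA.
Kif11, chr19:37376322-37376411, plus strand: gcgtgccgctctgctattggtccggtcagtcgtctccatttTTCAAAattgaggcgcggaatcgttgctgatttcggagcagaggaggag
Kif15, chr9:122951021-122951110, plus strand: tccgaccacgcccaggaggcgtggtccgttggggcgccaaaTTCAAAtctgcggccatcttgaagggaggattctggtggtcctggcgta
Kif22, chr7:127042391-127042480, minus strand: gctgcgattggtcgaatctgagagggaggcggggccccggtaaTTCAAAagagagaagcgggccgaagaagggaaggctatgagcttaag
Kif18b, chr11:102925095-102925184, minus strand: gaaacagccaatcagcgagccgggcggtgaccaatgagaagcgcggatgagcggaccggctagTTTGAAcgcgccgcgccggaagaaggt
Kif23, chr9:61946770-61946859, minus strand: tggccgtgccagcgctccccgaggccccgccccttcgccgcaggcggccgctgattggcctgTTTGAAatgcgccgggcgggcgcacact
Kif20b, chr19:34922298-34922387, plus strand: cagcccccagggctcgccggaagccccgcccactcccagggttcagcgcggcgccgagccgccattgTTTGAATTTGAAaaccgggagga
Kif4, chrX:100626005-100626094, plus strand: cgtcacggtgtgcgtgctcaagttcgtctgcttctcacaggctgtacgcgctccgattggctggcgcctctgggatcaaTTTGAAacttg

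Counted with the start as base 1 and the base before it as -1, the match begins at -19 in Kif11 and Kif15, at -17 in Kif22, at 3 in Kif23, at 4 in Kif18b and at 20 in Kif4. Kif20b holds a pair of matches side by side, at 8 and 14. Kif15 and Kif22 each hold a further match upstream, the windows of Kif2c and Kif14 hold the letters only farther upstream, and that of Kif18a does not hold them. The windows of Kif2c and Kif14 lie wholly inside the gene as GENCODE M21 places it, away from its first base. So does that of Kif4, which is among the 7 with a match near the RefSeq start. The window of Kif1a that holds the only match of a transport kinesin also lies wholly inside its gene. Of the transport kinesins that fell, Kif16b and Kif3c have no match in their windows, and they are shown over the same stretch for comparison, with no letters to capitalise.
Kif16b, chr2:142901435-142901524, minus strand: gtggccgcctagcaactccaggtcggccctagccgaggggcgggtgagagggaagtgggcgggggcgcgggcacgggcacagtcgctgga
Kif3c, chr12:3365072-3365161, plus strand: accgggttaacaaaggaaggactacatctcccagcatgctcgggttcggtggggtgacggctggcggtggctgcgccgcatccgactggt

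The CCAAT box, another element common in promoters of mitotic genes, was in 6 of 10 mitotic and 2 of 8 transport kinesins, beside 43.4% of genes at the minimum level. GGGCGG, the core of the GC box, was in 6 of 10 and 6 of 8, beside 70.6%. A match describes these letters only and shows no binding and no regulation in these forelimbs.

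**Figure D2:**
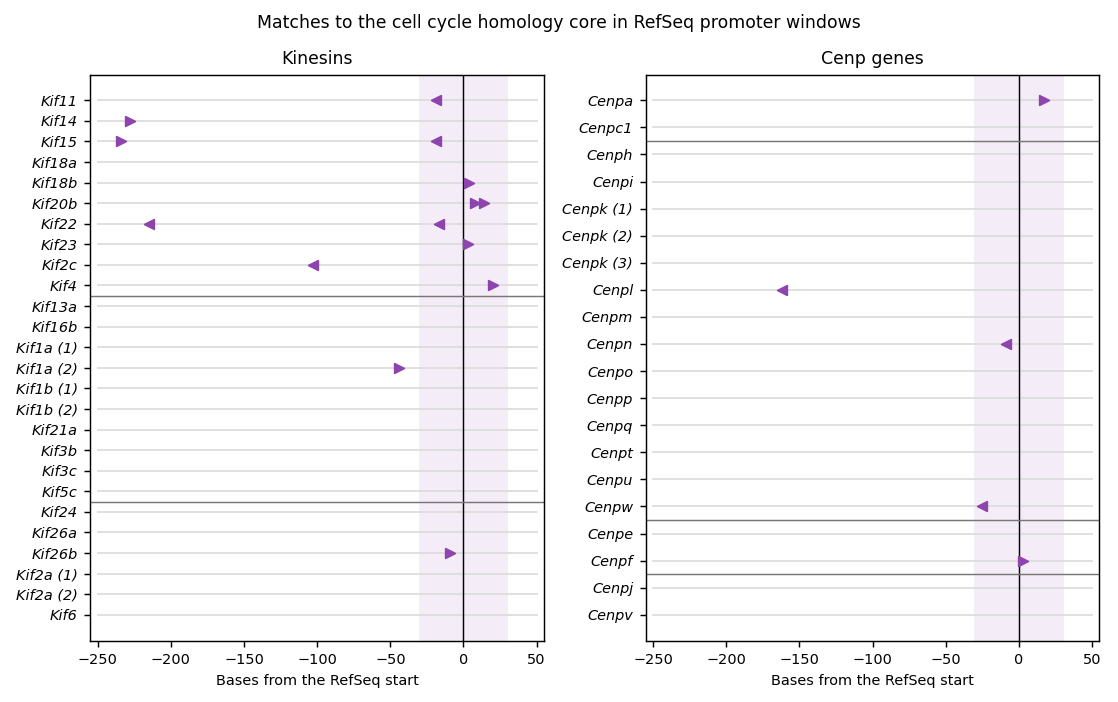
Start of each TTTGAA match in bases from the RefSeq start, for the kinesin and Cenp genes at the minimum level that have a promoter window, with arrowheads giving the strand and the shaded band the 30 bases on each side of the start. In 7 of 10 mitotic kinesins a match lies in the band, against no transport kinesin; numbers in parentheses mark several windows of 1 gene.

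Transport kinesins were lower in Prmt5cKO for 9 of 12 genes at the minimum level, with 8 below the median ratio of all genes, and 4 of them fell by the authors' test. Their summed level went from 144 to 132 FPKM, 91.7% of control. Of all genes at the minimum level 8144 of 11674 lay below a ratio of 1 and the sum was 93.5% of control, so the count of lower values and the sum were near those of the table. After quantile normalization the median of the transport kinesins was -0.026. Kif16b, which moves early endosomes and thereby steers receptor recycling, fell from 11.3 to 7.80 FPKM, put at log2 -0.53 (q = 4.19e-13) by the authors' deposited table. It had the lowest q of all 51 genes. Kif3c, a motor of the kinesin-2 class, fell from 7.71 to 5.66 FPKM (log2 -0.44 with q = 0.0154 by the authors' deposited table). Kif1a, which carries synaptic vesicle precursors in axons, fell from 2.26 to 1.33 FPKM (log2 -0.76 with q = 0.00109 by the authors' deposited table). Kif5a, the heavy chain of kinesin-1 best known from neurons, went from 1.87 down to 1.11 FPKM (log2 -0.76 with q = 0.00129 by the authors' deposited table). Kif1a and Kif5a were thus the least expressed transport kinesins at the minimum level and the ones with the largest fold changes, while their level was only slightly above the 1 FPKM limit.

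The best expressed transport motor did not pass. Kif5b, the widely expressed kinesin-1 heavy chain, was at 47.4 FPKM in control and 50.3 in Prmt5cKO (log2 0.09 with q = 0.663 by the authors' deposited table). Kif5c, the third heavy chain, was at 10.8 and 10.7 FPKM. The 3 genes of this small family had a call only for Kif5a, and the differences between them were not tested. Kif1b, which carries mitochondria and vesicles, was at 30.02 and 24.6 FPKM, and Kif13b at 6.06 and 5.10; neither was tested by the authors. Kif3b, the partner of Kif3a in the motor of ciliary transport, was at 7.53 and 6.72 FPKM (q = 0.508), and Kif13a, which moves endosomes, at 8.72 and 7.85 (q = 0.180) in the authors' deposited table. Kif21a and Kif21b, which curb microtubule growth as well as moving along it, lay slightly higher in Prmt5cKO, at 5.81 and 6.01 FPKM and at 4.64 and 4.85, and did not pass. Without these 2 genes the median of the transport kinesins was -0.24. Kif17 stood below the minimum level at 0.0920 and 0.0397 FPKM. Kif1c shares its row with Mir6925 and is not counted above. That row was at 6.52 and 6.73 FPKM and was not tested. With rows of several genes included, the transport median was -0.14 and its difference from the mitotic median 0.13.

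Because Kif1a and Kif5a are best known from nerve, markers of neurons and of Schwann cell precursors are set beside their falls. Of 12 neuron markers 4 reached the minimum level. Of these Gap43 (8.40 and 9.76 FPKM), Tubb3 (7.48 and 7.06) and Stmn2 (3.56 and 5.42) did not pass, and Dcx (4.08 and 2.71) was not tested, so single markers lay on both sides of a ratio of 1. The 12 summed to 26.03 and 27.2 FPKM in control and Prmt5cKO. The synaptic genes Snap25 (0.0703 and 0.0249) and Syt1 (0.213 and 0.169) were near 0. Of 8 Schwann cell precursor markers 3 reached it and 2 fell, Erbb3 from 9.70 to 6.93 FPKM and Gfra3 from 1.92 to 0.820, while Sox10 was at 0.468 and 0.626; the 8 summed to 14.3 and 10.2. No marker of either list was at 0 in both genotypes. The part of these cells in the falls of Kif1a and Kif5a was not tested.

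**Figure D3:**
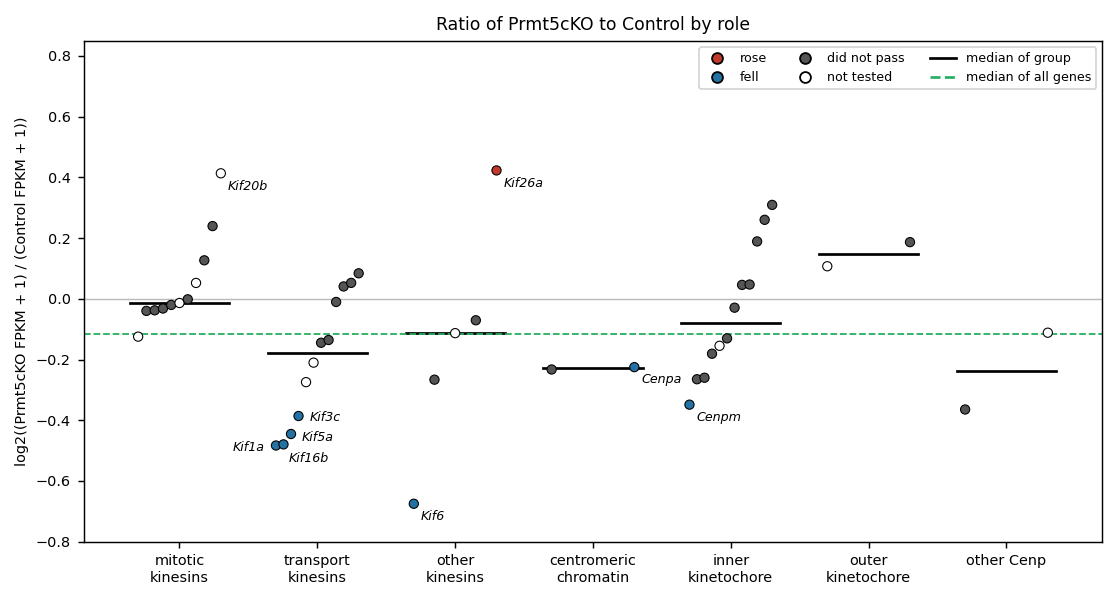
Log2 ratio of Prmt5cKO to control, with 1 FPKM added to each, for the 46 genes by role; colours give the authors' call, black bars the group median and the dashed line the median of all genes at -0.12. Mitotic kinesins cluster around 0 with Kif20b above, and 4 transport kinesins and Kif6 form the lower edge of the kinesins.

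Kinesins outside the mitotic and transport sets included the only rise and the largest fall. Kif26a, an atypical kinesin that binds microtubules without walking and is known for its part in growth factor signalling of enteric neurons, rose from 4.39 to 6.23 FPKM, 142% of control, put at log2 0.50 (q = 5.36e-07) by the authors' deposited table. Its paralog Kif26b, a gene of kidney mesenchyme, was far higher at 24.7 and 22.7 FPKM and was not tested; of the expressed kinesins outside the mitotic set that have a window, it alone held TTTGAA within 30 bases of its start. Kif6, a kinesin linked to motile cilia, fell from 2.80 to 1.38 FPKM, 49.3% of control, put at log2 -1.02 (q = 0.0177) by the authors' deposited table. Kif2a, a microtubule depolymerase of neurons and spindles, was at 12.7 and 12.0 FPKM (q = 0.749), and Kif24, which shortens centriolar microtubules, at 5.69 and 4.56 (q = 0.102) in the authors' deposited table. Kif9, Kif12 and Kif19a stood below 1 FPKM in both genotypes, with Kif12 listed at 0 in control.

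The called Cenp genes both fell. Of 18 Cenp genes, all at the minimum level, 15 were tested, 2 fell and none rose, and the median log2 ratio was -0.12, the same as that of all genes to 2 decimals. Cenpa, the histone H3 variant that marks the centromere, had the highest level of all 51 genes and fell from 86.0 to 73.4 FPKM, 85.4% of control, put at log2 -0.23 (q = 0.00535) by the authors' deposited table. Cenpc1, which reads this mark and links it to the rest of the kinetochore, was at 22.8 and 19.2 FPKM (log2 fold change -0.24, q = 0.0666) and lay just outside the threshold in the authors' deposited table. Both genes of centromeric chromatin with a row of their own thus had ratios near each other, at 85.4% and 84.4% of control. The DNA-binding Cenpb shares its row with Spef1 and is not among the 18; that row was at 38.04 and 35.4 FPKM.

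The inner kinetochore, the assembly that sits on centromeric chromatin throughout the cell cycle, had 12 genes here, with levels in control from 5.52 to 26.8 FPKM. Their sum was 190 FPKM in control and 188 in Prmt5cKO, with 5 genes above and 7 below a ratio of 1. Cenpm fell from 21.3 to 16.5 FPKM, 77.5% of control (log2 fold change -0.37, q = 0.0130), and was the only one of the 11 tested to pass in the authors' deposited table. Its neighbours in one subcomplex, Cenph and Cenpk, were at 26.8 and 27.7 FPKM and at 18.2 and 22.0 (q = 0.825 and 0.173), and Cenpi, X-linked and not tested, at 13.2 and 11.7. The values of this subcomplex lay on both sides of a ratio of 1. The histone-fold partners Cenpt and Cenpw also lay on opposite sides, at 15.2 and 12.5 FPKM (q = 0.0989) and at 15.6 and 19.5 (q = 0.215) in the authors' deposited table, with neither past the threshold. Cenpn and Cenpl, which dock on Cenpa nucleosomes, were at 20.5 and 21.2 FPKM and at 8.84 and 7.99. In the Cenpo group, Cenpo was at 7.38 and 7.21 FPKM, Cenpp at 20.1 and 16.6, Cenpq at 17.3 and 19.9 and Cenpu at 5.52 and 4.75, and these 4 did not pass. Itgb3bp, also known as Cenpr and a member of the same group outside the 51 genes, fell from 5.35 to 3.48 FPKM (log2 -0.62 with q = 0.0132 by the authors' deposited table), and 2 other inner kinetochore genes under other symbols, Apitd1 and Stra13, did not pass.

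At the outer kinetochore Cenpe, itself a kinesin that carries chromosomes to the spindle equator, was at 23.2 and 26.5 FPKM (log2 fold change 0.19), and at q = 0.0568 it was the gene nearest to the threshold among those outside it in the authors' deposited table. The farnesylated protein gene Cenpf was at 22.5 and 24.4 FPKM and was not tested. Among called genes Kif6 lay nearest to the threshold, at q = 0.0177. Cenpj, which despite its name acts in centriole growth, was at 8.35 and 7.65 FPKM without a test, and Cenpv, a protein of the central spindle and of microtubules, at 16.7 and 12.8 (q = 0.169 in the authors' deposited table).

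TTTGAA was less regular in the Cenp genes. It lay within 30 bases of the start in Cenpa, Cenpf, Cenpn and Cenpw, and in no other of the 18; Cenpl holds it farther upstream. Cenpa, the fallen gene of this group, is shown with capitals as above.
Cenpa, chr5:30666826-30666915, plus strand: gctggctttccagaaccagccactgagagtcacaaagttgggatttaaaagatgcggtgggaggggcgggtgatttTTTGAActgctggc
Its match begins at base 17. Cenpm, the other Cenp gene that fell, holds no match in its window, which lies wholly inside the gene as GENCODE M21 places it. The same is true of windows of Cenpj, Cenpk, Cenpo, Cenpq and Cenpt. Of the mitotic kinesins with the letters near the start none was called, but Kif20b and Kif23 among them were not tested. A link between the letters and the genotype differences was not tested.

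Lists of genes that work with the mitotic kinesins also had medians near a ratio of 1, while single genes of most lists lay on both sides of it. Beside the calls below, 24.1% of all tested genes were called. Of 12 genes of the outer kinetochore and the Ska complex Nuf2 rose from 31.2 to 37.8 FPKM and Zwint fell from 130 to 111, which the authors' deposited table lists at log2 0.28 (q = 0.0203) and -0.23 (q = 0.00265), 9 did not pass and 1 was not tested. In the spindle checkpoint list 1 of 11 changed, the kinase gene Bub1, which rose from 35.1 to 41.9 FPKM (log2 0.25 with q = 3.62e-08 by the authors' deposited table). All 6 genes of the chromosomal passenger complex and its partners lay slightly above a ratio of 1, and none passed. In the list for placing Cenpa on chromatin, Npm1, a nucleolar chaperone with wider roles, rose from 893 to 1129 FPKM (log2 0.34 with q = 0.00178 by the authors' deposited table). Among 16 mitotic drivers Ccnb2 and Cdc25b fell, from 76.0 to 59.5 and from 12.5 to 9.96 FPKM, and Cit, the citron kinase partner of Kif14, rose from 4.56 to 5.36. The proliferation marker Mki67 was at 62.7 and 61.1 FPKM without passing, and Top2a, the topoisomerase that untangles sister chromosomes, at 291 and 214 without a test. The medians of these 5 lists were 0.01, 0.03, 0.09, 0.04 and -0.0041 on the log2 ratio scale. The summed FPKM of the mitotic drivers was 92.0% of control, beside 93.5% for all genes.

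Kifc1, a mitotic kinesin that walks to the minus end and is not among the 51 by its symbol, rose from 25.2 to 34.1 FPKM (log2 0.43 with q = 0.00491 by the authors' deposited table). The row of its close relative Kifc5b, shared with Phf1, was at 11.0 and 16.4 FPKM (log2 0.58 with q = 3.18e-06 by the authors' deposited table). How reads were split between these relatives is not known, so the size of each value is uncertain. Partners of the transport kinesins lay mostly below a ratio of 1. All 9 adaptors and light chains did, with a median of -0.15, but 4 of them lay above the median of all genes and so would turn to the other side of 1 if the genotypes were scaled to it. Kifap3, the subunit that links kinesin-2 to cargo, fell from 35.6 to 31.4 FPKM (log2 -0.18 with q = 0.0183 by the authors' deposited table), 6 did not pass and the light chain genes Klc1 (36.2 and 29.4) and Klc4 (15.8 and 11.51) were not tested. Dynein and dynactin, the transport machine of the opposite direction, had 21 of 23 genes below a ratio of 1 and a median of -0.15, with 9 above the median of all genes. Dctn2 fell from 68.2 to 44.0 FPKM and the adaptor gene Bicd2 from 15.6 to 13.3, which the authors' deposited table lists at log2 -0.63 (q = 4.34e-07) and -0.22 (q = 4.66e-05). Set beside the -0.12 of all genes, the medians of the transport lists lay 0.04 and 0.03 below it and those of the 5 mitotic lists above it.

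**Figure D4:**
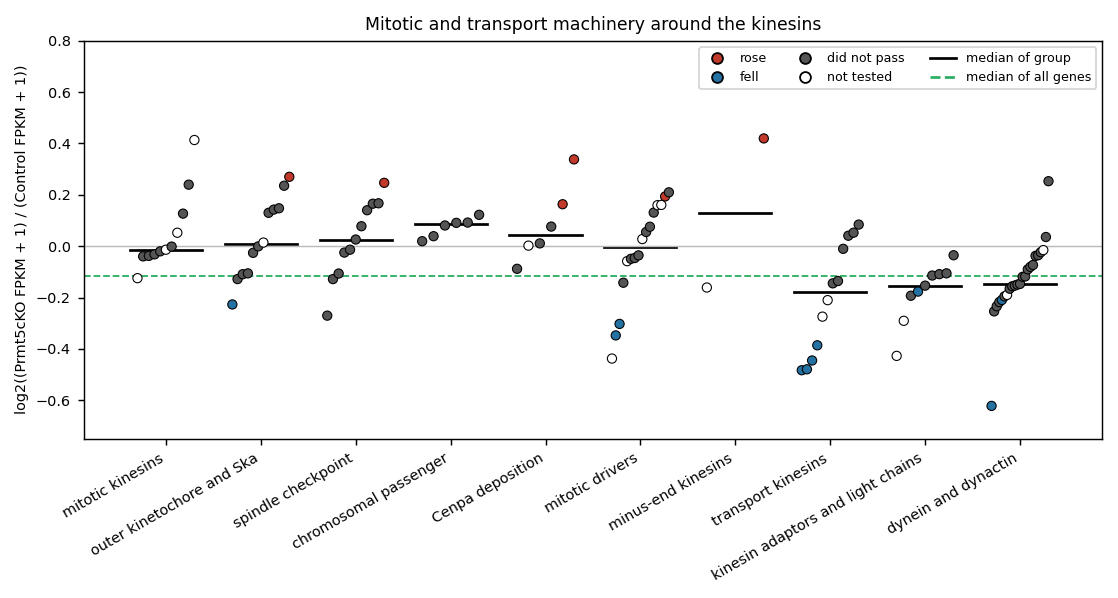
Log2 ratios of Prmt5cKO to control for the mitotic and the transport kinesins beside 8 lists of genes that work with them, at the minimum level, with the authors' call by colour and medians as black bars. The medians of the 5 lists of outer kinetochore, checkpoint, passenger, Cenpa deposition and mitotic driver genes lie between -0.0041 and 0.09, and those of the adaptors and of dynein and dynactin at -0.15, near the -0.12 of all genes.

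The sets of kinesins also differed in gene length. In GENCODE M21 on GRCm38 (mm10) the 11 mitotic kinesin genes spanned 8.67 to 101 kb with a median of 45.5 kb, and the 12 transport kinesin genes 37.7 to 284 kb with a median of 102 kb, against 24.4 kb for all genes. Across the table the share of tested genes that fell was 15.9% among the shortest of 4 classes of span with equal numbers of genes and 27.03% among the longest, above 58.5 kb. The longest class held 7 of 12 transport and 4 of 11 mitotic kinesins. Within it the median log2 ratio was -0.21 for the transport and -0.04 for the mitotic kinesins, beside -0.15 for all its genes. The difference of the medians was 0.17 there and 0.16 over all spans. The part of gene span in this difference was not tested. Kif16b (minus strand, chr2:142617474-142901531) and Kif6 (plus strand, chr17:49615136-49909847) span 284 and 295 kb. Kif5a, on chromosome 10 from 127225696 to 127263348, and Kif3c, on chromosome 12 from 3365132 to 3406494 span 37.7 and 41.4 kb, in the class from 24.4 to 58.5 kb, above the median of all genes. Kif1a lies on chromosome 1 from 93015464 to 93101951, Kif26a on chromosome 12 from 112146208 to 112181747, Cenpa on chromosome 5 from 30666777 to 30674830 and Cenpm on chromosome 15 from 82233779 to 82244748.

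**Figure D5:**
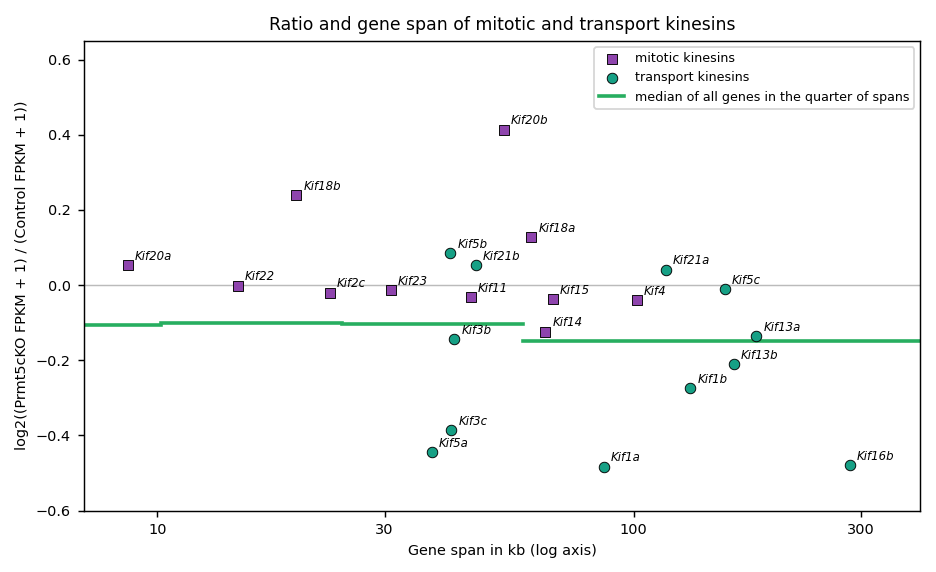
Log2 ratio of Prmt5cKO to control against gene span in kb on a log axis for the 11 mitotic (squares) and 12 transport kinesins (circles) at the minimum level, with green lines for the median of all genes in each of 4 classes of span. In the longest class the transport kinesins have a median of -0.21 and the mitotic ones of -0.04, and Kif3c and Kif5a lie low in the class before it.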

How the data were processed

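RNA of 3 control and 2 Prmt5cKO forelimb samples was measured, grouped by sample title. Bowtie2 (version 2.1.0), TopHat2 (2.0.10), Cufflinks (2.1.1) and the build mm10 are listed in the submitters' processing notes, without their roles. Per the file headers, the authors deposited 1 FPKM per genotype, a log2 fold change and a q-value for each of 28092 rows. Over 20663 rows the deposited folds lay within 1.3e-05 of the log2 ratio of the FPKM columns. Genes listed with a fold of 0 and q 1 count as untested (1057 of 11674 genes at the minimum level). Rows that name no gene (15.5%, 1.94% and 2.08% of the summed FPKM) and 597 rows of several genes were left out; 3 of the latter hold Kif1c, Kif27 and Cenpb. The labels do not say how replicates were combined or tested, so every q is the authors' own. Among 909 rows under 0.05 FPKM 19 shared the commonest ratio, so whole reads were not recovered and depth per sample is unknown. FPKM does not correct for composition.

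Here log2 ratios (pseudocount 1 FPKM, minimum mean 1 FPKM), counts and medians were computed with Python 3.11.15 and pandas 2.3.3, after a test on simulated data, and no p-value was computed. That test had its answers set in advance and checks the code, not the results. The genes described, the role groups and the lists were chosen with earlier results of these data known. Named in full were the genes past the threshold, the 3 of highest level in each role and the untested ones; of the further lists, chiefly genes past the threshold. Promoter windows are RefSeq's, on GRCm38.p6; spans are from GENCODE M21, which held all 51 genes. The result of 1 gene of the further lists is not reported here.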

Additional observations from a re-analysis of the deposited data

How the results depend on the processing

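No paired analysis was possible because the table used here holds 1 value per genotype and none per replicate, and leaving out each replicate could not be run for the same reason. Of the 8 calls, 5 remained at a q under 0.01 (4 falls), without Cenpm, Kif3c and Kif6, and 5 at a minimum mean of 5 FPKM (4 falls), without Kif1a, Kif5a and Kif6. A q under 0.1 gave 12 calls with 3 rises, adding Cenpe, Kif18b, Cenpc1 and Cenpt. At these settings 16.8%, 25.7% and 29.7% of all tested genes were called. Of the genes described here 36, 32 and 36 were tested at them. With no minimum level, rows of a symbol summed, rows of several genes included or X-linked genes left out, the 8 calls remained. None of these settings could remove a call. The authors' q was kept, each gene had 1 row, and neither X-linked gene, Kif4 or Cenpi, was called. Including rows of several genes, leaving out X-linked genes and the restriction to long genes were chosen after seeing the data. The difference of mitotic and transport medians kept its sign in all 13 alternatives, from 0.09 to 0.23. Among these, summing the rows of a symbol could not change it, as each gene had 1 row. Limits for calling a median moved were set at 0.1 on the log2 scale, as there is no spread between replicates. Rescaling to a median ratio of 1 takes out the shift of -0.12 over all genes, and gave 0.11 for mitotic, -0.065 for transport and 0.012 for other kinesins, -0.10 for centromeric chromatin, 0.036 for the inner and 0.27 for the outer kinetochore and -0.12 for the other Cenp genes. Quantile normalization gave -0.026 for transport kinesins, 0.063 for the inner kinetochore and -0.10 for the other Cenp genes. Directions of these medians against 0 are therefore relative to the scaling. Without untested rows the other Cenp genes, then Cenpv alone, were at -0.36, and in the longest class of spans the inner kinetochore, then Cenpp alone, at -0.26.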
